A study of Mus musculus with 6 samples.

Results

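The 8 genes described here encode the structural proteins of the synaptonemal complex: Sycp1, Sycp2, Sycp3, Syce1, Syce2, Syce3, Tex12 and 4930447C04Rik, which is the file's name for Six6os1. They were chosen by gene symbol, as the named parts of the complex, and the rule used no measured value. All 8 were found among the 48709 genes of the count table, and all 8 passed the filter on low counts. By the part of the complex they build, 2 are lateral element genes, 1 is a transverse filament gene and 5 are central element genes.

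The synaptonemal complex is a ladder-like structure that holds homologous chromosomes side by side during the prophase of the first meiotic division, while recombination takes place. SYCP2 and SYCP3 coat the chromosome axes and form the lateral elements, SYCP1 dimers reach across as transverse filaments, and the SYCE proteins, TEX12 and SIX6OS1 join the filament heads along the midline as the central element. In the mouse, female germ cells enter meiosis in the fetal ovary, so transcripts of these genes rise there in midgestation, before the complex is assembled.

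Ovaries were collected at 13.5 dpc (days post coitum) from embryos of wild type CD1 mice, an outbred strain. The dams were gavaged from 10.5 to 13.5 dpc either with ethanol, the diluent (control), or with acetaminophen (APAP) at 30 mg/kg/day and ibuprofen (IBU) at 15 mg/kg/day, the drugs alternating every 3 h over 4 gavages (APAP+IBU). Each group had 3 libraries, and each library came from pooled gonads of embryos of more than one dam, so the libraries and not the embryos are the replicates. The sample titles of the exposed group name ibuprofen alone, while the exposure label names both drugs.

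The libraries held from 37811968 to 48954631 counts. Germ cell and gonadal somatic markers were present in all of them: Ddx4, a germ cell RNA helicase, lay between 191 and 268 CPM (counts scaled to library size with edgeR's normalization factors), and Foxl2, a pregranulosa transcription factor, between 0.944 and 8.16 CPM. Replicate 3 of each group stood apart by RNA of 15 liver genes, which summed to 2056 CPM (control) and 3342 CPM (APAP+IBU) there but to no more than 578 CPM in any of the other 4 libraries, where the lowest sum was 204 CPM. Afp, the fetal albumin-like protein, had 889 and 1281 CPM in these libraries and 125 to 365 CPM in the rest. Over the 6 libraries the liver genes ran from -0.033 (Ttr) to 1.05 (Ahsg) in log2 fold change (APAP+IBU over control), and 9 erythroid genes, which summed to 2077 to 12474 CPM, from -1.46 (Hba-a1) to 0.47 (Slc4a1). The 11 gonadal somatic genes summed to 1240 to 1657 CPM, with log2 fold changes from -0.25 (Irx3) to 0.29 (Lhx9). Results are therefore given for all 6 libraries and again for replicates 1 and 2 of each group. The smaller set leaves out the APAP+IBU library in which 0 of the 8 synaptonemal complex genes were above every control. Its calls and p-values depend on that choice. A further list of 11 spermatid genes, transcripts of the adult testis, summed to 39.8 to 143 CPM in the controls and 1.92 to 5.84 CPM in the APAP+IBU ovaries, with all 11 lower in every APAP+IBU than in every control library (5.92% of all genes tested were separated in this direction). Smcp, a sperm mitochondrial sheath gene, had 2.42 to 6.87 CPM in controls and 0.118 to 0.182 CPM after exposure, and the list ran from -5.26 (Prm1) to -3.33 (Akap4) in log2 fold change. The 8 late spermatocyte genes, whose cell type also expresses synaptonemal complex genes, summed to 30.7 to 65.2 CPM in controls and 21.8 to 25.3 CPM in exposed libraries, where 6 of the 8 were separated and the log2 fold change ran from -3.97 (Pgk2) to -0.30 (Hspa2). Acrv1, a spermatid gene, was at 0 in 2 exposed libraries, and no other gene of the testis and liver lists was at 0 in any library. The part of the liver and testis RNA in the results below was not tested.

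Upstream sequences are shown for the 5 genes that hold an E-box, a motif described next, and for Sycp2, which had the largest log2 fold change and no E-box. RefSeq (GRCm38.p6) gave 10 promoter windows for the 8 genes, each running from 250 bases before the start of the gene to 50 bases after it. The start is that of RefSeq and need not be the end of the gene span given further on: that of 4930447C04Rik lies inside the span, which comes from GENCODE and extends further upstream. The E-box CACGTG, its own reverse complement, was found in windows of 5 of the 8 genes, against 8.09% of 27025 genes with such windows. Below are the 250 bases before the start, 5′ to 3′ on the strand of the gene, with each E-box in capitals.
Sycp1 (transverse filament, chr3:102936101-102936350, minus strand): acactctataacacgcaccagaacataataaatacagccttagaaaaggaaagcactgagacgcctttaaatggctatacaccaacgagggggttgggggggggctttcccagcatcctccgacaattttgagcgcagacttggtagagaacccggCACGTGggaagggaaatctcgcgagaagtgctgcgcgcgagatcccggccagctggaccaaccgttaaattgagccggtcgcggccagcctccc
Sycp3 (lateral element, chr10:88459337-88459586, plus strand): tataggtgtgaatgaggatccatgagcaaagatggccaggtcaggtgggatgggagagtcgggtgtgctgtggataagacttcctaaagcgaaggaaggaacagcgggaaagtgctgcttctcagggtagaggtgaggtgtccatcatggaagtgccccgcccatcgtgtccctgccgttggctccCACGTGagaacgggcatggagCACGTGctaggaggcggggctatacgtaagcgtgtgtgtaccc
Sycp2 (lateral element, chr2:178407659-178407908, minus strand): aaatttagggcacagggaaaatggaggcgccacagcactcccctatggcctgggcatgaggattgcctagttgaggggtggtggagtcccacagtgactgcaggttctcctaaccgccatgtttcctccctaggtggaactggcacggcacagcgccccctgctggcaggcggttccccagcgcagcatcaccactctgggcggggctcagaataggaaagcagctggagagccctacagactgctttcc
4930447C04Rik (central element, chr12:72917766-72918015, minus strand): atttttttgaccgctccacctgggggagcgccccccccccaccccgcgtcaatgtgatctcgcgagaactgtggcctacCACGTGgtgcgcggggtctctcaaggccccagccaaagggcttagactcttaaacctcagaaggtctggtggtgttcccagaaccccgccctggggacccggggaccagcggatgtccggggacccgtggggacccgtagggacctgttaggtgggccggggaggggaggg
Tex12 (central element, chr9:50561269-50561518, minus strand): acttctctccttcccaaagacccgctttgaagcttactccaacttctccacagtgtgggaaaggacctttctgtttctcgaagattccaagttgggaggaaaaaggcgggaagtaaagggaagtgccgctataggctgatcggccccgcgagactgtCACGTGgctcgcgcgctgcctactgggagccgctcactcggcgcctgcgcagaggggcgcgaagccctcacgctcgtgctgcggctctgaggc
Syce2 (central element, the second of its windows, chr8:84872008-84872257, plus strand): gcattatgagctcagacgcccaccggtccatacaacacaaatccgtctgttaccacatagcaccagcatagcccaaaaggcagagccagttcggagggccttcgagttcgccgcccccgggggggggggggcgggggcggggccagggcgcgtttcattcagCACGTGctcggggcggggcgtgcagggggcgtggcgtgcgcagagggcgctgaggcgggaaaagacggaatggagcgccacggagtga
Sycp3 carried the E-box in 2 places, with first bases 64 and 43 bases before the RefSeq start, and Sycp1, Tex12, Syce2 and 4930447C04Rik carried it once, at 94, 93, 88 and 171 bases. None was found in the windows of Sycp2, Syce1 or Syce3.

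Other motifs were searched on both strands. CCTCAG, the core of the motif bound by STRA8 and MEIOSIN, the factors that start meiosis, was found in 5 of the 8 genes (Sycp1, Syce1, Syce2, Tex12 and 4930447C04Rik), against 29.4% of all genes. The E2F site core TCCCGCC was found in Syce2 and Tex12, 2 of the 8, against 12.7% of all genes. TGACGT, the core of the cAMP response element, was in no window of the 8 and in 8.37% of all genes. These are matches of letters only.

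Across all 6 libraries no synaptonemal complex gene passed the test, with log2 fold changes of 1.12 to 1.36 for Sycp2, Sycp1 and 4930447C04Rik and of at most 0.43 for the SYCE genes. The quasi-likelihood test of edgeR, adjusted over 20167 genes by the Benjamini-Hochberg method, called 0 of the 8 genes and 0% of all genes at an adjusted p under 0.05. An unadjusted p under 0.05 was found for 3 of the 8, all higher, against 3% of all genes higher and 3.21% lower, and DESeq2 called 0 of the 8, 0.0942% of all genes higher and 0.858% lower. The levels of the APAP+IBU and control libraries overlapped for all 8 genes, while 4.78% of all genes were higher in every APAP+IBU library. The median log2 fold change was 0.53 over the 8 genes and -0.0047 over all genes tested. An exact two-sided permutation test of 3 against 3 libraries cannot go below 0.1, and it gave 0.2 to 0.9 for the 8 genes.

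With replicates 1 and 2 only, 5 of the 8 genes were called, and all 5 rose: Sycp1, Sycp2, Sycp3, Tex12 and 4930447C04Rik. This set leaves out the APAP+IBU library in which 0 of the 8 genes were above every control. The calls depend on that choice, as 0 of the 8 were called with all 6 libraries. The fit to replicates 1 and 2 called 14.2% of all genes higher and 12.9% lower, of 20633 tested. In both exposed libraries these 5 genes were above both controls, as were 34.5% of all genes. Of the 5, all but Sycp2 carried the E-box shown above, and Syce2, which carried it too, was not called. A link between the motif and the calls was not tested. After the correction for length and GC content described further on, the calls of Sycp3 and Tex12 were lost. In the same 4 libraries without the correction, 5 of 9 erythroid genes were called lower, with a median log2 fold change of -1.65. After the correction 0 of the 9 were called lower (8.23% of all genes), with a median of -1.09. The part of the erythroid RNA in the result was not tested. Without the correction the median log2 fold change was 0.75 over the 8 genes and -0.0032 over all genes. In bulk tissue, a change in the number of germ cells and a change in the RNA of each cell cannot be told apart.

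**Figure D1:**
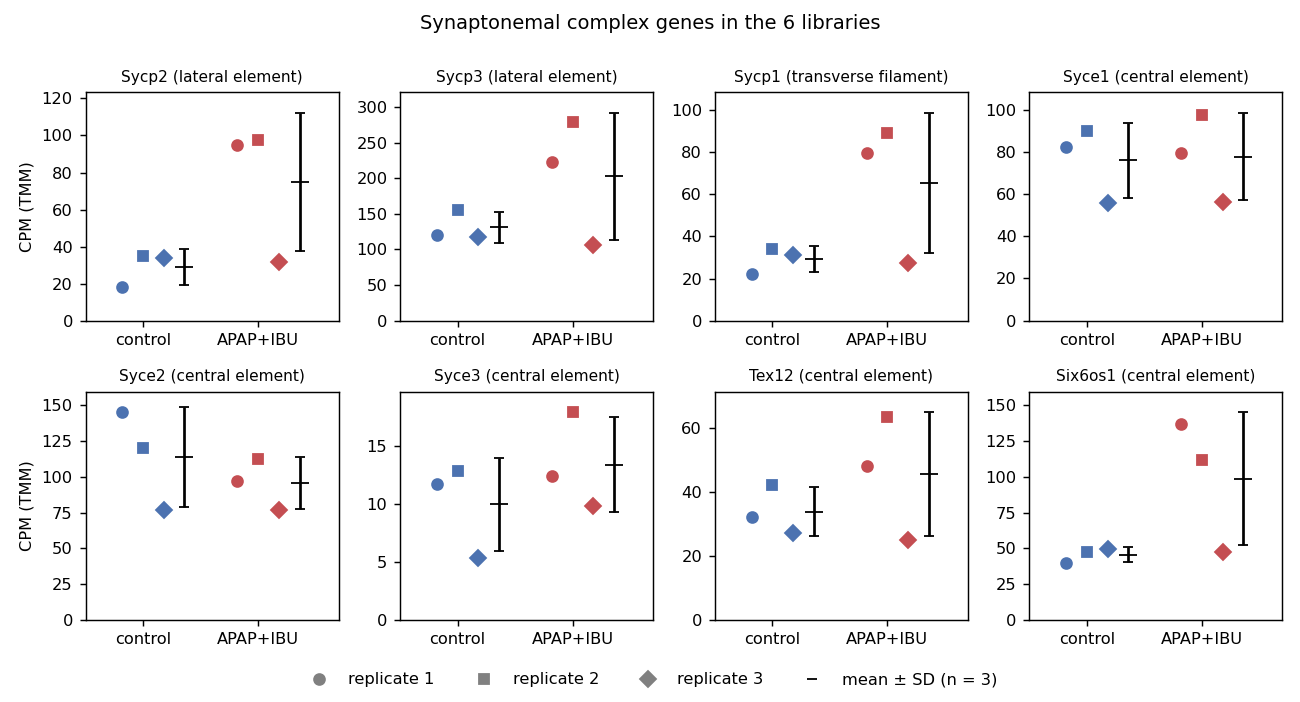
Level of each synaptonemal complex gene in CPM (linear axis from 0, one panel per gene), with 3 control and 3 APAP+IBU libraries as points and each group's mean and SD. APAP+IBU replicates 1 and 2 are above every control for Sycp1, Sycp2, Sycp3, Tex12 and Six6os1 (4930447C04Rik), and APAP+IBU replicate 3 lies among or below the controls for these 5 genes.

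Sycp1 (ENSMUSG00000027855, chromosome 3, 102818499 to 102936100, minus strand), the transverse filament gene, was measured at 22.2, 34.0 and 31.2 CPM in the controls (replicates 1, 2 and 3, the order used throughout) and at 79.6, 89.0 and 27.6 CPM in the exposed libraries. APAP+IBU replicates 1 and 2 were above every control, and replicate 3 was below control replicates 2 and 3. With all 6 libraries the log2 fold change was 1.17 (SE 0.40, adjusted p = 0.692, edgeR). With replicates 1 and 2 it was 1.61 (SE 0.19, adjusted p = 0.00623, edgeR), a ratio of the means of 3.00. In replicate 3 alone the ratio was 0.884.

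Sycp2 (ENSMUSG00000060445, chromosome 2, 178345293 to 178407685, minus strand) had 17.99, 35.2 and 34.0 CPM in the controls and 95.1, 97.4 and 31.8 CPM in the exposed libraries. SYCP2 is the lateral element protein on which SYCP3 depends for its place on the axis. Its log2 fold change of 1.36 (SE 0.43, adjusted p = 0.692, edgeR) was the largest of the 8 genes. Between replicates 1 and 2 of each group it rose by 1.88 (SE 0.27, adjusted p = 0.00662, edgeR), with a ratio of 3.62, whereas in replicate 3 the ratio was 0.935.

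Sycp3 (ENSMUSG00000020059, chromosome 10, 88459569 to 88473236, plus strand), the other lateral element gene, whose protein forms fibres along the axis, was at 120, 156 and 117 CPM in the controls and 223, 280 and 106 CPM after APAP+IBU. The lowest of the 6 values was thus that of APAP+IBU replicate 3. Its log2 fold change was 0.63 (SE 0.32, adjusted p = 0.692, edgeR) with all libraries and 0.88 (SE 0.15, adjusted p = 0.00929, edgeR) with replicates 1 and 2, and 0.055 (adjusted p = 0.845, edgeR) in the latter after the length and GC correction. An exonic stretch of 660 bases of Sycp3 lies opposite exons of Chpt1, and since the strand setting of the counting was not given, reads there could belong to either gene. Chpt1 itself had 37.6 to 47.1 CPM in controls and 45.8 to 58.6 CPM in exposed libraries.

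4930447C04Rik, or Six6os1 (ENSMUSG00000021098, chromosome 12, 72881109 to 72940774, minus strand), was the central element gene that followed Sycp1 and Sycp2. SIX6OS1 binds SYCE1 and is needed for synapsis. The controls had 39.6, 47.2 and 49.5 CPM and the exposed libraries 137, 112 and 47.2 CPM. Replicates 1 and 2 gave a log2 fold change of 1.54 (SE 0.14, adjusted p = 0.00623, edgeR) and all 6 libraries 1.12 (SE 0.34, adjusted p = 0.692, edgeR). It shares 192 exonic bases with Six6 on the other strand, a gene with at most 0.175 CPM in any library.

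Tex12 (ENSMUSG00000032065, chromosome 9, 50556819 to 50561325, minus strand), whose protein pairs with SYCE2 to build fibres, was at 32.2, 42.1 and 27.1 CPM in the controls and 48.1, 63.5 and 25.0 CPM in the exposed libraries. It rose with replicates 1 and 2, by 0.61 on the log2 scale (SE 0.17, adjusted p = 0.0388, edgeR), and was at -0.19 (adjusted p = 0.509, edgeR) after the length and GC correction. With all 6 libraries the log2 fold change was 0.43 (adjusted p = 0.702, edgeR).

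The 3 SYCE genes did not pass in either set of libraries without the length and GC correction. Syce1 (ENSMUSG00000025480, chromosome 7, 140777229 to 140787852, minus strand), whose protein links SYCP1 to other central element proteins, had 82.1, 90.0 and 55.8 CPM in controls and 79.6, 97.4 and 56.4 CPM in exposed libraries. Same-numbered libraries of the groups were close to each other. Its log2 fold change was 0.059 with replicates 1 and 2 (SE 0.12, adjusted p = 0.733, edgeR) and 0.035 with all 6 (adjusted p = 0.964, edgeR). The latter turned negative when control replicate 3 or APAP+IBU replicate 2 alone was left out.

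Syce2 (ENSMUSG00000003824, chromosome 8, 84872111 to 84888221, plus strand), the partner of TEX12, was the gene of the 8 with a lower mean after exposure. It had 145, 120 and 76.6 CPM in controls and 97.4, 113 and 76.5 CPM in exposed libraries. In replicates 1 and 2 both exposed libraries were below both controls, as for 34% of all genes, and the log2 fold change was -0.32 (SE 0.12, adjusted p = 0.091, edgeR).

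Syce3 (ENSMUSG00000078938, chromosome 15, 89390174 to 89410503, minus strand), which encodes a small protein needed to load the other central element proteins, was the lowest of the 8 in CPM. It had 11.7, 12.8 and 5.34 CPM in controls and 12.4, 17.9 and 9.81 CPM in exposed libraries. It was also the gene with the highest ratio in replicate 3, at 1.84, where 6 of the other genes lay between 0.884 and 0.999 and Syce1 was at 1.01. Its log2 fold change was 0.43 (SE 0.35, adjusted p = 0.718, edgeR) with all libraries.

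**Figure D2:**
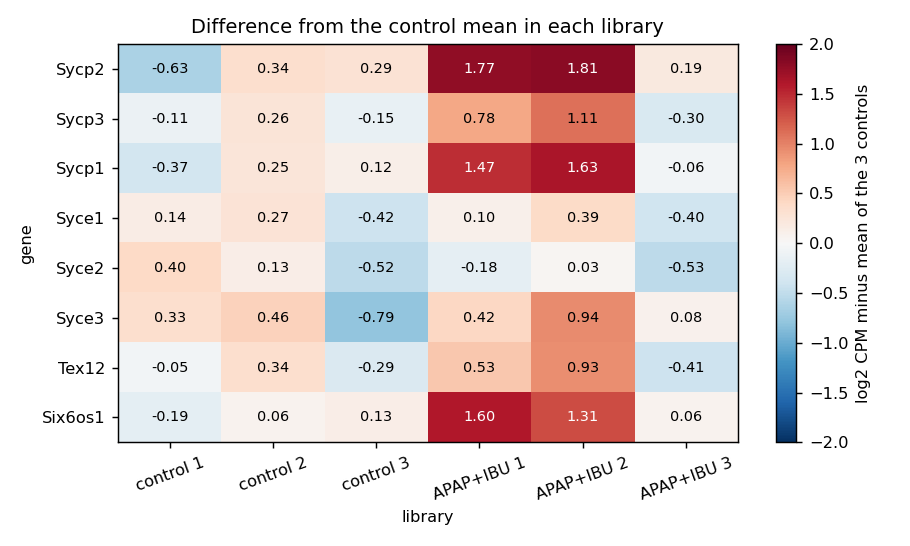
Log2 CPM of each of the 8 genes in each of the 6 libraries, minus the mean of the 3 controls. APAP+IBU replicate 2 is above every control for 7 genes, APAP+IBU replicate 1 for 5 genes and APAP+IBU replicate 3 for 0 genes. The share of all genes above every control was not counted for single libraries.

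The libraries of a group did not behave alike. Relative to the control mean, the median of the 8 genes on the log2 scale was -0.080, 0.27 and -0.22 in the controls and 0.66, 1.02 and -0.18 in the APAP+IBU libraries. Over the 6 libraries the correlations among the 28 pairs of genes ran from -0.16 (Syce2 and Sycp2) to 0.99 (Sycp1 and Sycp2), with a median of 0.76. These points share library and group, and the correlations are a description.

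Compared per length, Sycp3 was the most abundant synaptonemal complex transcript. In TPM (counts divided by the length of the union of annotated exons and scaled to the same total in each library), it had a mean of 461 over the 6 libraries (277 to 807) and was above every other of the 8 genes in each library, and its range did not overlap that of Syce2, the next. Syce2 and Syce1, both at a mean of 180, could not be ordered, with Syce2 the higher in 3 of the 6 libraries. Tex12 (135), Syce3 (72.2) and Sycp1 (47.2) came next, then 4930447C04Rik (42.8) and Sycp2 (31.1). Sycp1 was above 4930447C04Rik in 3 of the 6 libraries, and all neighbours below Sycp3 overlapped in range. With the longest transcript as length 4930447C04Rik had 95.3 TPM and moved to the fifth place, above Syce3.

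**Figure D3:**
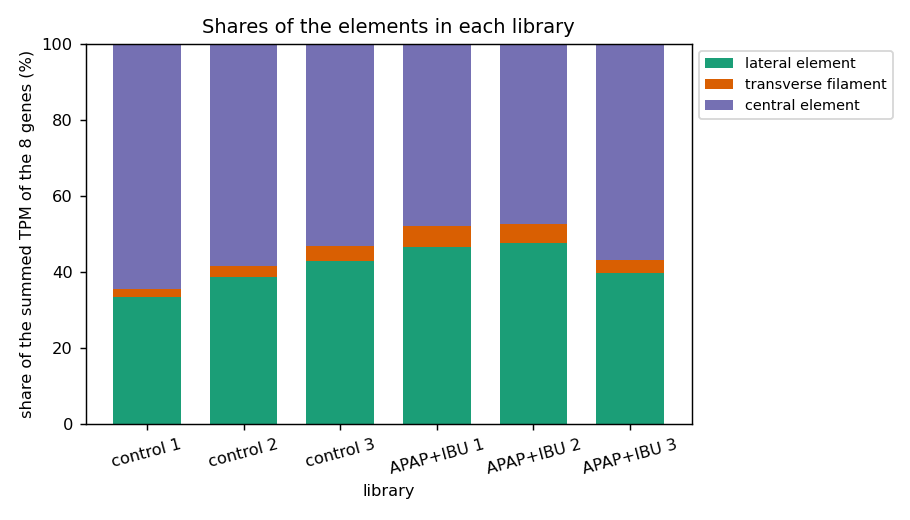
Share of lateral (Sycp2, Sycp3), transverse (Sycp1) and central element genes (Syce1, Syce2, Syce3, Tex12, 4930447C04Rik) in the summed TPM of the 8 genes, in percent, for each library. The lateral share spans 33.4% to 43.0% in the controls and 39.6% to 47.5% in the APAP+IBU libraries.

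Central element transcripts held most of the summed TPM in the controls, at 64.5%, 58.5% and 53.1%, and 47.9%, 47.5% and 56.9% in the APAP+IBU libraries. With the longest transcript as length the exposed libraries had 52.4%, 50.6% and 59.4%, so that the central element held most in every library. The groups overlapped, as APAP+IBU replicate 3 was above control replicate 3. Lateral element transcripts held 38.4% ± 4.83 (SD, n = 3) in controls and 44.6% ± 4.34 (SD, n = 3) in APAP+IBU. For the transverse filament, Sycp1, the shares were 2.94% ± 0.855 (SD, n = 3) and 4.63% ± 1.05 (SD, n = 3). The summed TPM was 829 to 1035 in controls and 1580, 1825 and 744 in APAP+IBU replicates 1, 2 and 3. The ranges of the groups overlapped for each of the 3 elements, and no test was made of these shares.

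The 5 genes that rose in replicates 1 and 2 shared a property the choice of genes did not use, which is a low GC content of the transcript. Sycp1, Sycp2, Sycp3, Tex12 and 4930447C04Rik had 34.3% to 36.4% GC in their longest transcript, within the lowest 1.23% of all genes tested, whereas Syce1, Syce2 and Syce3 had 49.5%, 49.3% and 52.9%. Genes with less than 37% GC, a limit chosen after these values were seen, numbered 367, the 5 genes included. With replicates 1 and 2 the test called 39.5% of them higher and 0.545% lower, and their median log2 fold change was 0.73. With all 6 libraries 0 of 348 were called in edgeR, and the median was 0.39. For 8634 genes of 47% to 55% GC, 8.81% were called higher with replicates 1 and 2 and the median was -0.067. The log2 fold changes of Sycp3 and Tex12 (0.88 and 0.61) lay near the median of the low GC class, and those of Sycp2, Sycp1 and 4930447C04Rik (1.88, 1.61 and 1.54) above it.

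After a correction of each library for gene length and GC content, Sycp2, Sycp1 and 4930447C04Rik still rose with replicates 1 and 2, by 1.18, 0.72 and 0.68 on the log2 scale (adjusted p = 0.0117, 0.0167 and 0.0106, edgeR). Syce3 was also called, at 0.75 (adjusted p = 0.0412, edgeR). Sycp3 was at 0.055 (adjusted p = 0.845, edgeR), and Tex12 was at -0.19 (adjusted p = 0.509, edgeR). So 4 of the 8 genes were called higher, against 5.68% of all genes higher and 8.23% lower, where the uncorrected fit gave 14.2% and 12.9%. Both exposed libraries were above both controls for 5 of the 8 (Sycp1, Sycp2, Syce1, Syce3 and 4930447C04Rik) and for 28.7% of all genes. Sycp3 and Tex12 now overlapped, and Syce1 was at 0.30 (adjusted p = 0.136, edgeR). In the low GC class the corrected median was -0.071 with 6.81% called higher and 14.2% lower, and in the class from 47% to 55% GC 5.47% were called higher. With all 6 libraries and the correction 0 of the 8 were called, with adjusted p from 0.526 to 0.967 in edgeR. Whether GC content played a part in the uncorrected values beyond this correction was not tested.

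**Figure D4:**
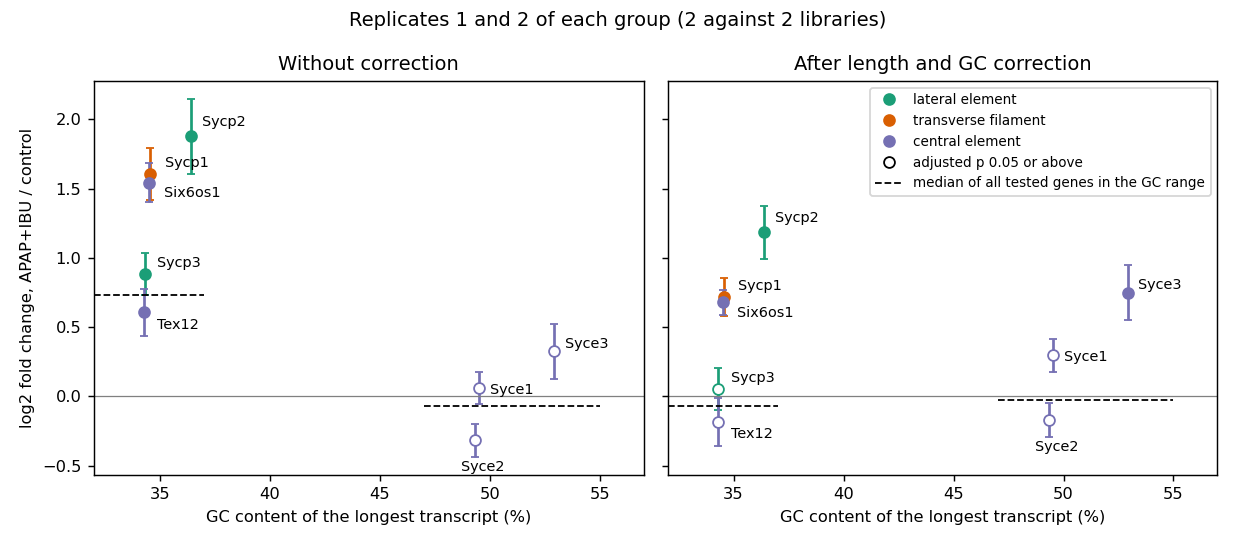
Log2 fold change (APAP+IBU over control, replicates 1 and 2 of each group) against the GC content of the longest transcript in percent, without (left) and with (right) the length and GC correction. Points are the 8 genes with their SEs, filled where the adjusted p was under 0.05, and dashed lines are the medians of all genes under 37% and from 47% to 55% GC.

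Synaptonemal complex genes are expressed in germ cells, so each was also set against the mean log2 CPM of 9 germ cell markers. The difference between groups was 1.44 for Sycp2, 1.20 for Sycp1 and 1.18 for 4930447C04Rik on the log2 scale (exact permutation p = 0.3 for each), and -0.036 for Syce2 (exact permutation p = 0.8), with overlapping groups for all 8 genes. The markers themselves moved in both directions with replicates 1 and 2. Ddx4 and Dazl, RNA-binding regulators of germ cells, rose by 0.32 and 0.68 (adjusted p = 0.0429 and 0.00632, edgeR). Dppa3, a marker of primordial germ cells, and Dnd1, an RNA-binding gene of germ cell survival, fell by 0.99 and 1.07 (adjusted p = 0.0197 and 0.0386, edgeR). After the length and GC correction only the call of Dppa3 of these 4 held (adjusted p = 0.0331, edgeR), with Ddx4 at 0.077 and Dazl at -0.049. With the library scaled to these markers in edgeR, Sycp2, Sycp1 and 4930447C04Rik were called with all 6 libraries at log2 fold changes of 1.60, 1.41 and 1.39 (adjusted p = 0.000163, 0.00187 and 0.00242). That scaling called 0.372% of all genes higher and 0.893% lower and moved the median of all genes to 0.18. Its SEs were 0.32 for Sycp2, Sycp1, 4930447C04Rik and Syce1, against 0.43 for Sycp2 and 0.24 for Syce1 without the scaling. These p-values therefore rest on a spread nearly common to these genes. Still 0 of the 8 were higher in every exposed than in every control library. Of the 9 markers, 2 had a positive log2 fold change over the 6 libraries without the scaling.

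**Figure D5:**
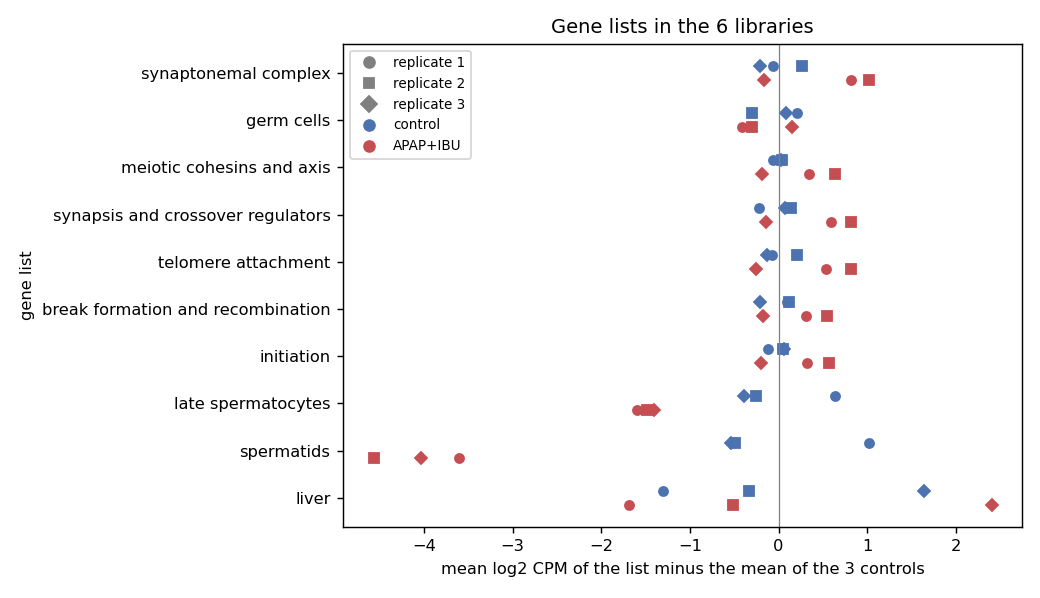
Mean log2 CPM of each gene list in each library, minus the mean of the 3 controls, with controls in blue and APAP+IBU in red. In the synaptonemal complex and the other meiotic lists APAP+IBU replicates 1 and 2 are above all controls and replicate 3 is not, while the spermatid and late spermatocyte lists are below all controls in every APAP+IBU library.

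Other genes of meiotic prophase were counted in lists of the same pathway. Among 9 genes of the meiotic cohesins and the axis, 6 rose and 1 fell with replicates 1 and 2, where 14.2% of all genes rose and 12.9% fell. Rad21l, a meiosis-specific cohesin subunit, rose by 1.39 (adjusted p = 0.00851, edgeR), and Rec8, another meiotic cohesin subunit, fell by 0.63 (adjusted p = 0.00945, edgeR). Of 9 regulators of synapsis and crossover formation 7 rose, Hfm1, a crossover helicase, by 1.39 (adjusted p = 0.00632, edgeR). The remover of axis proteins Trip13 was at -0.28 (adjusted p = 0.0939, edgeR). Of 7 genes that tie telomeres to the nuclear envelope 5 rose, Terb1 by 1.41 (adjusted p = 0.00632, edgeR). Sun2, of the same list, was at -0.25 (adjusted p = 0.0948, edgeR).

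Break formation and recombination genes numbered 11 in the tested table, of which 5 rose and 1 fell. Ankrd31, a partner of the break machinery, rose by 1.36 (adjusted p = 0.00623, edgeR), and Mnd1, a recombinase cofactor, was at -0.60 (adjusted p = 0.0803, edgeR). Among 5 initiation genes, 3 rose and 1 fell: Meiosin, named Gm4969 in the files, rose by 1.32 (adjusted p = 0.00903, edgeR), and Stra8, its partner, fell by 0.41 (adjusted p = 0.0495, edgeR). After the length and GC correction the numbers that rose were 2, 5, 4, 4 and 2 in the same order of lists, against 5.68% of all genes. Trip13 then fell by 0.44 (adjusted p = 0.0333, edgeR), and the falls of Rec8 (-0.30, adjusted p = 0.0769, edgeR) and Stra8 (-0.17, adjusted p = 0.422, edgeR) were lost. With all 6 libraries 0 genes of these lists were called in either direction in edgeR.

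Genes related to the members by sequence, mostly the Xlr family, which shares a domain with SYCP3, were tested for 10 of 14 genes, and 3 rose with replicates 1 and 2 (14.2% of all genes) and 1 after the length and GC correction (5.68%). Xlr rose by 0.84 (adjusted p = 0.0179, edgeR) and was at 0.42 after the correction (adjusted p = 0.167, edgeR), and Xlr5c was at -0.72 (adjusted p = 0.0766, edgeR). Sycp2l, the oocyte relative of Sycp2, was at 0.0218 to 0.161 CPM in 5 libraries and at 3.59 CPM in APAP+IBU replicate 3, and it did not pass the filter. Some Xlr genes are close copies of each other, and reads that match several of them could be misassigned or left uncounted.

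The genes whose pattern over the 6 libraries was most like that of the 8, by Pearson correlation with their mean standardised log2 CPM among 12456 genes, were Eaf2 (0.993), Taf7l (0.992), Zfp541 (0.991), Poln (0.988) and Mei1 (0.988). Mei1, needed for meiotic break formation, was at 16.4, 20.7 and 14.4 CPM in controls and 29.6, 39.6 and 14.4 CPM in APAP+IBU libraries. Taf7l, a germ cell relative of a general transcription factor subunit, was at 103 to 164 CPM in controls and 215, 255 and 94.9 CPM in APAP+IBU libraries. In all 5 genes APAP+IBU replicate 2 was the highest library and replicate 1 the next, and replicate 3 lay near the lowest control. This order follows from how the genes were picked. With 6 libraries and 12456 genes compared, such high correlations can also arise by chance.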

How the data were processed

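Per the labels, polyadenylated RNA of 13.5 dpc ovaries was sequenced as stranded libraries, and the authors mapped reads to mm10 (TopHat2 2.0.14, Bowtie2 2.1.0), counted them per gene with HTSeq 0.6.1 on Ensembl release 86 and deposited raw counts. The strand setting of the counting is not given in the sources used here.

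The counts were fitted in edgeR 4.0.16 under R 4.3.3, using TMM factors, filterByExpr and the quasi-likelihood test with Benjamini-Hochberg adjustment over all genes tested. CPM used the same factors, and log2 CPM a prior count of 1. The length and GC correction was a loess fit (span 0.3) in each library. DESeq2 1.42.0 was an alternative. Lengths, GC content and positions are from GENCODE M21 on GRCm38 and promoters from RefSeq. From each list the genes with the largest and smallest fold change among those of at least 1 CPM are named, plus Ddx4, Foxl2, Afp and Smcp as cell type markers and the 5 most alike genes. Acrv1, Dnd1, Sycp2l, Chpt1 and Six6 were named after their values were seen. The members were listed by symbol, and the members and lists were chosen with earlier results of these data known. The default edgeR and DESeq2 fits were tested on simulated counts, and the correction only against a length bias put on 1 library. A GC bias and the other settings were not simulated. Pairs of libraries of one group differed beyond sampling noise (chi-square per degree of freedom 17.2 to 143). Replicate numbers come from the titles, and the pairing check gave correlations of -0.069, -0.015 and -0.044. P-values measure the spread between pools.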

Additional observations from a re-analysis of the deposited data

How the results depend on the processing

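The 8 genes were refitted under 22 other settings, which gave 176 results. Of these, 145 kept their direction and their side of the threshold, 26 kept their direction and passed it, and 5 turned: Tex12 to -0.15 with the length and GC correction, to -0.15 with that correction and the replicate block, and to -0.19 with replicates 1 and 2 and the correction, and Syce1 to -0.14 without control replicate 3 and to -0.17 without APAP+IBU replicate 2 (0.20 without APAP+IBU replicate 3, the highest when 1 library was left out). The cause was not tested.

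The number of the 8 genes called was 0 with all 6 libraries and 3 with germ cell marker scaling. With replicates 1 and 2 only it was 5, also 5 with DESeq2 or with the replicate block, 4 with the length and GC correction and 4 with germ cell marker scaling. Their median log2 fold change was 0.23 without APAP+IBU replicate 2 and 0.81 without APAP+IBU replicate 3. Of the 8, the genes higher in every exposed library numbered 0 to 5 when 1 library was left out (1 without control replicate 3, 5 without APAP+IBU replicate 3). They numbered 5 with replicates 1 and 2, also with the correction, with DESeq2 and with the block, and 6 with marker scaling. With the correction the 5 were not the same genes, as Syce1 and Syce3 took the place of Sycp3 and Tex12. The share of all genes was 34.5% with replicates 1 and 2 and 28.7% with the correction, and was not counted for the others. Marker scaling moved the median of all genes to 0.27 with replicates 1 and 2.

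Over all genes, 0 were called with all 6 libraries, 255 with marker scaling, 120 with every gene of at least 1 count, 192 with DESeq2, 168 with its beta prior, 2 with the replicate block and 34 with the block and the correction. Leaving out 1 library gave 0 to 1064, the highest without control replicate 3. Replicates 1 and 2 gave 5607, 2870 with the correction, 5832 with DESeq2, 1846 with marker scaling and 3817 with the block.

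The authors describe independent experiments, each with dams of both conditions, and pools made for each experiment. No source used here says that same-numbered pools came from the same experiment or batch. The correlations of their deviations were -0.069 to -0.015, and over the 8 genes alone -0.87, 0.57 and -0.93 for replicates 1, 2 and 3. Both replicate 3 libraries also held the most liver RNA. These values do not decide whether the pools were paired. The replicate block called 0 of the 8 genes with 6 libraries. Leaving out any single library also left 0 of the 8 called, in designs of 3 against 2 libraries.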
